A study of Mus musculus with 58 samples.

Results

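DPY30–mAID Kdm5a/b double-knockout (dKO) mouse embryonic stem (mES) cells were compared at 24 h and 0 h of auxin by SLAM-seq, a method that counts newly made RNA. 4 of the 58 libraries of the series belong to this comparison (labelled DPY30mAID_Kdm5dKO), 2 at 0 h and 2 at 24 h, and the readout is the number of labelled reads of each gene, summed over its 3′ UTR intervals. The files hold 20177 genes, of which 5965 had a mean of at least 10 labelled reads in at least 1 of the 6 times sampled in this line and were tested. The cells are E14 mES cells of the 129/Ola background, grown on gelatin in serum with LIF. Both groups carry DPY30 fused to the mini auxin-inducible degron (mAID), the plant F-box protein OsTIR1 that auxin needs to direct a tagged protein to the proteasome, and Cas9-made deletions of Kdm5a and then of Kdm5b. Both were also given 100 µM 4-thiouridine (4SU) for 60 min before RNA isolation, so they differ only in the time on auxin. The methods name 2 picked clones of the dKO, but the labels do not say whether replicates 1 and 2 are those clones, and p-values here measure the spread between these libraries, which may be technical.

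DPY30 is a core subunit shared by the SET1/COMPASS complexes, the enzymes that methylate lysine 4 of histone H3 (H3K4). The trimethylated form, H3K4me3, marks the start sites of transcribed genes, and the KDM5 demethylases remove it. KDM5A and KDM5B are the members of that family deleted here. SLAM-seq reads RNA made during the 4SU pulse: incorporated 4SU is alkylated with iodoacetamide and then read as a T>C mismatch, so a T>C read comes from RNA made during the labelling, apart from a background of sequencing errors. The comparison asks which genes made less or more RNA after 24 h without DPY30 in cells that lack these 2 demethylases.

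The deletions were made with a pair of guides per gene, whose spacers are shown because they define the genotype that all 4 libraries share. Each spacer has 20 bases and is written 5′ to 3′.
Kdm5a sgRNA1: gtgaagtcaggattaccacc
Kdm5a sgRNA2: gtaatgacaaggttgttaca
Kdm5b sgRNA1: gacttttttctttaaaatac
Kdm5b sgRNA2: gcatctgcctgcaaacaaag
The spacer of Kdm5b sgRNA2 matched 1 spliced transcript, Kdm5b-205, at chr1:134587988-134588007 (GRCm38, antisense to the transcript) in its exon 1, and the other 3 matched no spliced transcript of GENCODE vM21. In all reads, Kdm5b had 151 and 109 counts per 1000000 counted reads (CPM) in the dKO at 0 h and 906, 946 and 910 CPM in DPY30–mAID cells that keep the gene. Kdm5a had 26.0 and 27.5 CPM against 105, 74.5 and 106 CPM. Both genes were lower in the dKO without overlap, and so were 2 of the genes that were not deleted, Kdm5c at 59.6 and 64.0 against 94.7, 101 and 79.7 CPM and Dpy30 at 74.4 and 61.3 against 154, 156 and 172 CPM. Rbbp5, also not deleted, overlapped at 82.4 and 79.3 against 95.7, 80.2 and 73.9 CPM, and the gap of Kdm5b was by far the widest of these 5 genes. The remaining 3′-end reads of Kdm5a and Kdm5b may lie outside the deleted part, so they do not report the protein. Dpy30 itself had 55.8 and 56.3 CPM in the dKO at 24 h, and since auxin acts on the protein these reads do not check its loss.

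The 12 libraries of the dKO hold between 5931269 and 7792404 counted reads, and the 4 compared here hold 6799131 and 7792404 reads at 0 h and 6953918 and 6606605 reads at 24 h. They gave 318922 and 410332 T>C reads at 0 h and 217929 and 196924 T>C reads at 24 h. Replicates differed by more than sampling noise at both times, with a chi-square per degree of freedom over genes of 6.73 between the 0 h libraries and 1.79 between the 24 h libraries. Of 10 embryonic stem cell markers, 10 were detected at 0 h with at least 80.7 CPM in all reads. Over whole libraries, a read covered 11.2 to 11.3 T positions in the dKO, against 18.4 to 19 in DPY30–mAID libraries.

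Labelling fell in the whole library by 24 h. T>C reads made up 4.69% and 5.27% of the counted reads at 0 h and 3.13% and 2.98% at 24 h, which is 4.98% ± 0.407 (SD, n = 2) against 3.06% ± 0.108 (SD, n = 2) and a ratio of 0.614. The shares of the 24 h libraries were both below those of the 0 h libraries, and an exact two-sided permutation test gave p = 0.333, which a design of 2 against 2 cannot go below. The unlabelled 3′-end libraries of the series at 0 h come from DPY30–mAID cells that keep Kdm5a and Kdm5b. They are the start of the DMSO arm of a retinoic acid course. These libraries held 0.338% and 0.303% of reads with a T>C mismatch. After subtraction of their mean, an alternative chosen after seeing the data, the ratio was 0.588. Conversions per covered T position were 0.473% and 0.533% at 0 h and 0.295% and 0.281% at 24 h. The number of conversions within a T>C read moved with them, from 1.143 and 1.141 per read at 0 h to 1.056 and 1.055 at 24 h, and the 24 h values did not overlap the 0 h values. A smaller pool of labelled nucleotide and a slower synthesis of RNA both lower the T>C count, and these counts alone cannot tell them apart. In a bulk culture, fewer cells that make a transcript and less of it per cell also cannot be told apart.

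**Figure D1:**
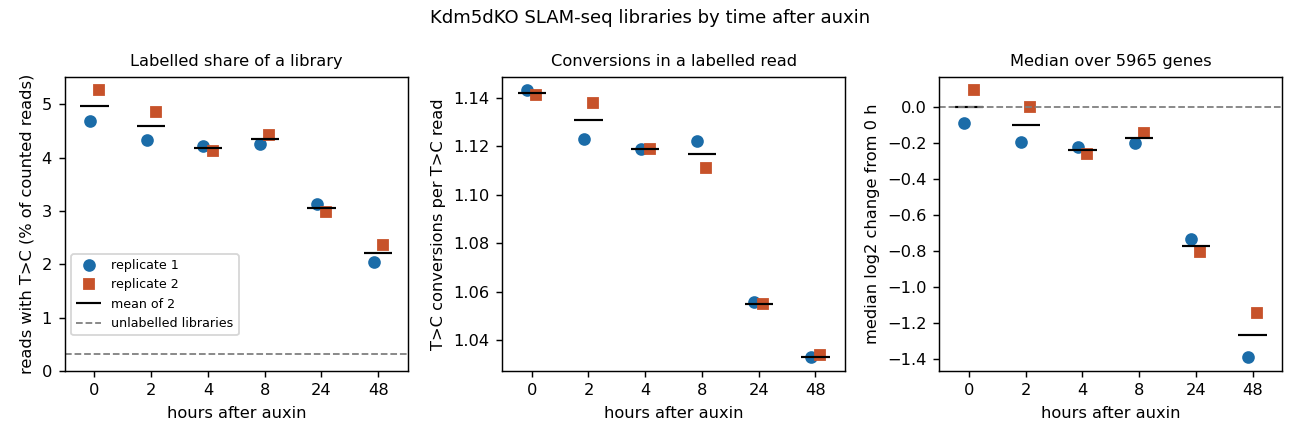
Labelling of the 12 dKO libraries by hours after auxin (horizontal axes), as the percent of counted reads with a T>C mismatch, the number of T>C conversions per T>C read, and the median log2 change from the 0 h mean over 5965 genes. Points are libraries and black lines are means of 2. The dashed line in the first panel is the 0.321% of unlabelled libraries of DPY30–mAID cells in DMSO at 0 h. The 24 h libraries lie between those of 8 h and 48 h on all 3 measures.

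Across genes the change at 24 h was broad. On counts scaled to all reads of the library, 1643 of 5965 genes fell (27.5% of genes tested) and 7 rose (0.117%). A call needed an adjusted p below 0.05 in edgeR's quasi-likelihood test and a log2 change below −1 or above 1. DESeq2 with size factors from all reads gave 1034 falls and 4 rises. The median gene changed by −0.80 on the log2 scale, to 0.573 of its 0 h level, and 5528 genes (92.7%) lay below 0. The middle of the distribution ran from −1.18 to −0.45 between the 25th and 75th percentiles and from −1.94 to 0.12 between the 5th and 95th percentiles. Both 24 h libraries lay under both 0 h libraries in 4195 genes and above them in 138 genes, and the groups overlapped in 1632 genes. The medians of the 24 h libraries were −0.74 and −0.81, and those of the 0 h libraries −0.09 and 0.09 around their own mean. The count of falls depended on 2 libraries, with 927 falls and 12 rises without 0 h replicate 2 and 1059 falls and 6 rises without 24 h replicate 2.

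When the counts were scaled instead to the T>C reads of each library, which removes a change shared by all genes, the median moved by 0.73 to −0.08. On this T>C scaling 131 genes fell (2.2% of genes tested) and 44 rose (0.738%). All of the 131 were among the 1643. Of the 44, 7 had also risen on total-read scaling, and 35 had an adjusted p above 0.05 there. The direction of the median gene does not flip between the scalings, but that of any gene between −0.73 and 0 does. Changes below are on total-read scaling unless T>C scaling is named. Where a gene named as fallen kept its call on T>C scaling this is said. The other named falls lost their call there, at T>C-scaled changes that were still below 0.

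**Figure D2:**
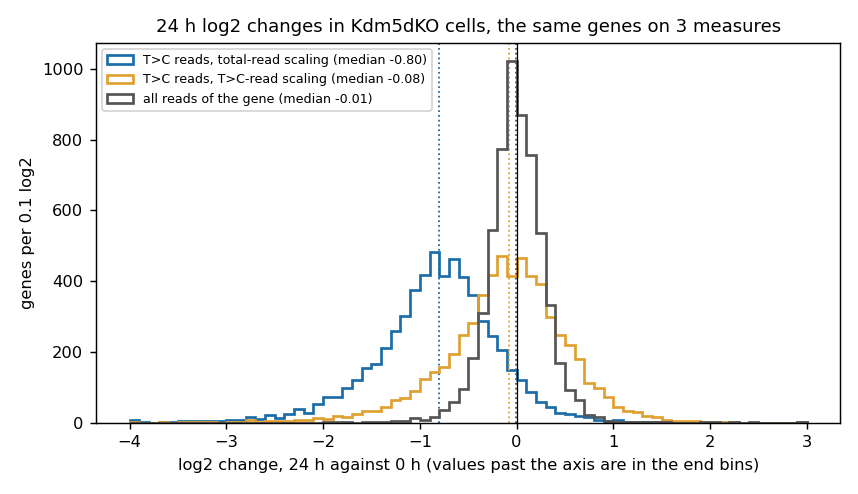
Distribution over 5965 genes of the log2 change from 0 h to 24 h (horizontal axis, bins of 0.1) against the number of genes per bin (vertical axis), for T>C reads on each scaling and for all reads of the same genes. Dotted lines mark the medians of −0.80, −0.08 and −0.01.

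Among genes that fell with under 10% of reads mapped to more than 1 place (multi-mapped), the 6 with the most labelled reads at 0 h included chromatin, signalling and RNA-binding genes. Jade1, which encodes a scaffold of the HBO1 histone acetyltransferase complex (chr3:41555731-41616864, GRCm38, plus strand), had 161 and 176 T>C reads per 1000000 counted reads (T>C CPM) at 0 h and 55.9 and 46.9 T>C CPM at 24 h. Both 24 h libraries of Jade1 lay far under both 0 h libraries, and it fell by 1.77 on the log2 scale (standard error 0.15, adjusted p = 1.55e-16), or −1.04 on T>C scaling, where it kept its call. Id1, an inhibitor of bHLH factors and a BMP target, had 125 and 129 T>C CPM at 0 h and 63.1 and 68.6 at 24 h, a log2 change of −1.01 (standard error 0.14, adjusted p = 1.82e-08) and −0.28 on T>C scaling. G3bp2, an RNA-binding protein of stress granules, had 124 and 129 T>C CPM and then 58.4 and 52.2, a change of −1.25 (−0.53 on T>C scaling). Pim3, a serine/threonine kinase and LIF target in mES cells, had 119 and 124 and then 61.1 and 60.1, a change of −1.06 (−0.33 on T>C scaling). Mkrn1, a RING ubiquitin ligase, had 101 and 111 and then 45.7 and 39.5, a change of −1.38 (−0.64 on T>C scaling). Pcbp1, a poly(C)-binding protein, had 93.0 and 100.4 and then 27.2 and 33.6, a change of −1.73 (−1.001 on T>C scaling, still called). In each of these 6 genes both 24 h libraries lay under both 0 h libraries, and Id1, G3bp2, Pim3 and Mkrn1 lost their call on T>C scaling.

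The pluripotency factors Sox2, Pou5f1 and Nanog differed in their values. Sox2 had 136 and 132 T>C CPM at 0 h and 73.9 and 69.2 at 24 h, with no overlap. Its log2 change of −0.97 (standard error 0.14, adjusted p = 4.53e-08) passed the p threshold and missed the size threshold, and it was −0.24 on T>C scaling. All reads of Sox2 had 740 and 715 CPM at 0 h and 745 and 734 CPM at 24 h, a log2 change of −0.04 (adjusted p = 0.718). Pou5f1 fell, from 30.1 and 29.5 to 16.5 and 14.2 T>C CPM, a change of −1.01 (−0.29 on T>C scaling), with 99.7% multi-mapped reads, so its copies share these reads. Nanog had 33.0 and 49.4 T>C CPM at 0 h and 38.1 and 38.9 at 24 h, and the groups overlapped. The change of Nanog was −0.17 on total-read scaling (adjusted p = 0.403) and 0.57 on T>C scaling, and 33.9% of its reads were multi-mapped.

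The 6 deepest falls among genes with a 0 h mean of at least 50 T>C reads and under 10% multi-mapped reads included developmental and imprinted genes. Gbx2, a homeobox factor downstream of LIF (chr1:89927956-89931179, GRCm38, minus strand), had 13.1 and 16.6 T>C CPM at 0 h and 3.16 and 1.06 at 24 h. Gbx2 fell by 2.85 on the log2 scale (standard error 0.31, adjusted p = 1.98e-12), and its change on T>C scaling was −2.12. Trap1a, an X-linked tumour rejection antigen, had 7.79 and 6.16 and then 0.863 and 1.21 T>C CPM, a change of −2.79. Inhbb, the βB subunit of inhibins and activins, had 10.6 and 9.75 and then 1.87 and 1.21, a change of −2.76. Peg10, an imprinted gene of retrotransposon origin, had 16.6 and 16.3 and then 2.88 and 2.27, a change of −2.73. Car2, a carbonic anhydrase, had 15.3 and 15.5 and then 2.16 and 2.88, a change of −2.67. Eid2, an inhibitor of differentiation that binds EP300, had 13.1 and 17.4 and then 2.44 and 3.18, a change of −2.51. These 6 genes stayed past the thresholds on T>C scaling, with changes of −2.12 to −1.77, and so did the zinc finger gene Zfp979 (20.0 and 20.3 to 3.60 and 3.94 T>C CPM, −2.48 and −1.75 on T>C scaling).

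The 7 genes that rose had few labelled reads at 0 h. Egr1, an immediate early transcription factor, had 14 and 16 T>C reads at 0 h and 46 and 33 at 24 h, or 2.06 and 2.05 against 6.62 and 5.00 T>C CPM. Egr1 rose by 1.43 on the log2 scale (standard error 0.38, adjusted p = 0.00169) and by 2.16 on T>C scaling. Ccn2, a secreted matricellular protein and YAP target, had 12 and 45 T>C reads and then 52 and 70, a rise of 1.16 (adjusted p = 0.00789), and its 0 h libraries differed from each other by more than the higher 0 h library differed from the lower 24 h library. Maff, a small MAF factor, had 8 and 14 and then 36 and 20 T>C reads, a rise of 1.38 (adjusted p = 0.00721). Itfg1 had 5 and 10 and then 26 and 12 T>C reads, a rise of 1.37 (adjusted p = 0.0334). Xpnpep3, a mitochondrial aminopeptidase with 14% of reads multi-mapped, had 4 and 12 and then 21 and 15 T>C reads, a rise of 1.21 (adjusted p = 0.0484). Cyp1a1, a monooxygenase that the aryl hydrocarbon receptor induces, had 0 and 0 T>C reads at 0 h and 15 and 12 at 24 h, at least 4.81-fold higher against a floor of 3 reads in each 0 h library. Mgat4c, a glycosyltransferase, had 0 and 0 and then 4 and 5 T>C reads, at least 1.61-fold higher against the same floor. Cyp1a1 reached the minimum mean of 10 T>C reads at 24 h alone and Mgat4c at 48 h alone, so both were tested only through a time at which they are high. Itfg1 and Xpnpep3 averaged 7.5 and 8 T>C reads at 0 h, under that minimum, and were tested only through later times. Egr1, Ccn2 and Maff averaged 15, 28.5 and 11 at 0 h, so their rises do not depend on that.

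Of the well-labelled genes, averaging 100 or more T>C reads at 0 h, the 6 with the highest log2 changes did not pass both thresholds on total-read scaling. Klf6, a Krüppel-like transcription factor, had 13.4 and 20.1 T>C CPM at 0 h and 29.1 and 25.4 at 24 h, with both 24 h libraries above both 0 h libraries. Its change of 0.63 (adjusted p = 0.00738) was below the size threshold, and on T>C scaling it rose by 1.36. Rlim, a ubiquitin ligase that acts in X inactivation, had 14 and 14.5 and then 16.8 and 16.0 T>C CPM, a change of 0.14. Brd2, a BET bromodomain protein, had 18.1 and 23.0 and then 24.3 and 22.9, a change of 0.13. Hic2, a transcriptional repressor, had 22.9 and 26.7 and then 27.6 and 28.8, a change of 0.12. Nr4a1, an immediate early nuclear receptor, had 23.8 and 40.7 and then 34.1 and 37.2, a change of 0.07. Rell1 had 26.3 and 23.0 and then 27.9 and 25.3, a change of 0.05. Adjusted p ran from 0.571 to 0.827 for these last 5 genes, and on T>C scaling they changed by 0.78 to 0.88. All reads of Rlim, Brd2, Hic2 and Rell1 changed by 0.55 to 0.77 with an adjusted p below 0.001.

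**Figure D3:**
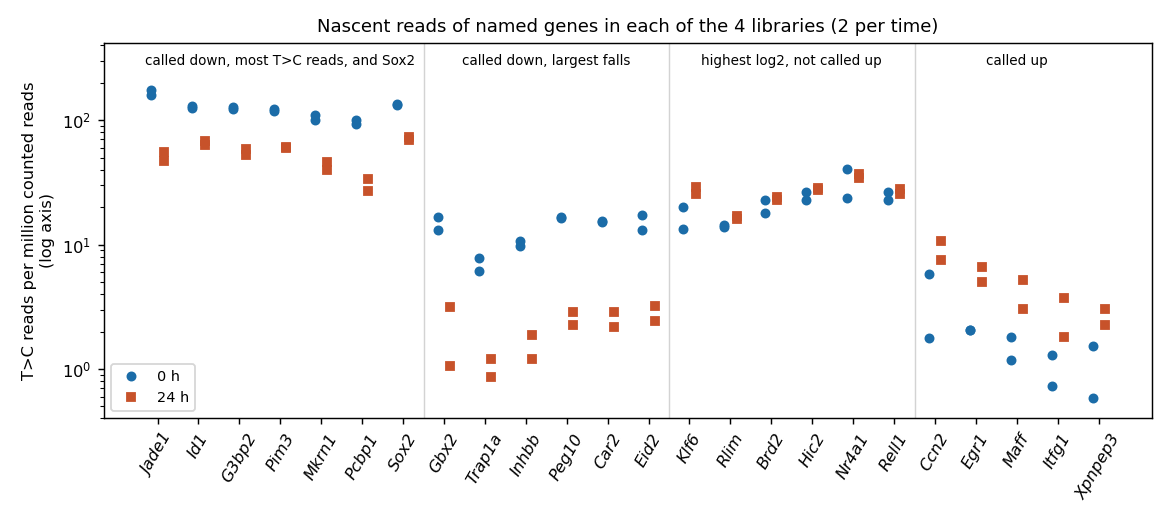
T>C CPM (log axis) of named genes in each of the 4 libraries, 0 h as circles and 24 h as squares. The groups do not overlap in the genes called down or up, and in Brd2, Nr4a1 and Rell1 they do. Cyp1a1 and Mgat4c are not drawn because they are at 0 T>C reads at 0 h.

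On T>C scaling, the other risen genes with the largest changes among those with under 10% multi-mapped reads, chosen after their values were seen, also had few reads. Papolg, a poly(A) polymerase, had 1.62 and 1.80 T>C CPM at 0 h and 4.75 and 2.42 at 24 h, a change of 1.73 on T>C scaling and 1.00 on total-read scaling. Twsg1, Usp32, Ddx47, Fgfbp1, Otud7b, Lamp2 and Ckap2l had T>C-scaled changes of 1.49, 1.46, 1.46, 1.45, 1.45, 1.36 and 1.33, and total-read changes between 0.61 and 0.76. In these 8 genes both 24 h libraries lay above both 0 h libraries, and none passed the thresholds on total-read scaling.

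Gene lists are described next by their counts and medians, with no test of any list. Over all tested genes falls made up 27.5%, with a median of −0.80 (−0.08 on T>C scaling). The share of falls also differed with depth, from 12.7% to 35.5% over 5 equal bins of the mean 0 h T>C reads. The writers of H3K4 methylation had few falls. Of 16 tested COMPASS subunits 1 fell, Dpy30, and the list median was −0.61 (0.12 on T>C scaling). Dpy30 went from 5.74 and 5.52 to 3.02 and 2.12 T>C CPM, a fall of 1.18 on the log2 scale (adjusted p = 0.00682) and −0.46 on T>C scaling, with 21.5% of its reads multi-mapped. Ash2l, the core subunit next to DPY30, had 17.1 and 16.7 and then 11.2 and 9.84 T>C CPM, a change of −0.74 that was −0.01 on T>C scaling. Of 5 tested H3K4 demethylases 2 fell, Riox1 by 1.35 and the LSD1 gene Kdm1a by 1.17, with a list median of −0.83 (−0.10 on T>C scaling). The 3′-end reads of the deleted Kdm5b changed by −0.83 (adjusted p = 0.0991), and those of Kdm5a by 0.12 (adjusted p = 0.864).

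In 3 lists of the transcription apparatus the share of falls was 25%, 21.4% and 40%, beside 27.5% over all genes. The list at 40% has only 10 tested genes. Of 36 tested genes of RNA polymerase II and its initiation factors 9 fell, with a median of −0.65 (0.08 on T>C scaling). The largest subunit Polr2a had 15.4 and 18.2 T>C CPM at 0 h and 6.76 and 8.02 at 24 h, a fall of 1.25 (−0.52 on T>C scaling), and Gtf2e1 and Polr2b fell by 1.34 and 1.03, whereas Polr2m changed by −0.86. Of 28 pausing and elongation factors 6 fell, with a median of −0.72 (0.00 on T>C scaling). Among them the FACT subunit Ssrp1 fell by 1.73 (−0.998 on T>C scaling, just short of the size threshold), the 7SK capping enzyme Mepce by 1.10 and the ELL partner Eaf1 by 1.06, whereas the P-TEFb cyclin Ccnt1 changed by −0.53 (0.20 on T>C scaling). Integrator, a nuclease complex that ends transcription near promoters, had 4 falls of 10 tested subunits and a median of −0.92 (−0.19 on T>C scaling). Ints2 had 10.0 and 9.11 T>C CPM and then 3.16 and 2.42, a fall of 1.82 that stayed called on T>C scaling at −1.10. Ints3 and Ints7 fell by 1.63 and 1.75, whereas Nabp1, with 8.09 and 8.34 and then 3.16 and 5.45 T>C CPM, was not called.

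Pluripotency and signalling lists had more falls than the share over all genes, though each is small. Of 20 tested naive pluripotency factors 8 fell, with a median of −0.92 (−0.19 on T>C scaling). Esrrb, an orphan nuclear receptor, had 10.9 and 15.5 T>C CPM and then 7.48 and 4.39, a fall of 1.22, and Sall4 and the chromatin protein Utf1 fell by 1.05 and 1.84. Utf1 and the Nodal co-receptor Tdgf1 (−1.92, 34.8% multi-mapped) were also called on T>C scaling, at −1.11 and −1.19. Of 10 formative and epiblast genes 6 fell, with a median of −1.13 (−0.39 on T>C scaling), including Foxd3 by 1.54, Sox4 by 1.15 and Otx2 by 1.10. Of 15 FGF and ERK feedback genes 6 fell, with a median of −0.73 (0.00 on T>C scaling). The feedback inhibitor Spry1 fell by 2.32 and kept its call on T>C scaling, Il17rd by 1.12 and the ETS factor Etv4 by 2.62, whereas the ERK phosphatase Dusp6 had 156 and 198 and then 154 and 160 T>C CPM, a change of −0.23 that was 0.50 on T>C scaling. Of 7 Nodal and BMP feedback genes 3 fell, with a median of −0.88 (−0.15 on T>C scaling). The receptor inhibitor Smad7 had 36.2 and 46.7 and then 17.8 and 22.2 T>C CPM, a fall of 1.12, and Id3 changed by −0.17 (0.56 on T>C scaling) where its paralogue Id1 fell.

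In 4 small lists of chromatin and methyl donor genes the share of falls was 63.6%, 44.4%, 20% and 33.3%, in the order below. A difference between these lists was not tested. Of 11 tested genes of a list of DNA methylation enzymes and their partners 7 fell, with a median of −1.12 (−0.38 on T>C scaling). The de novo methyltransferase Dnmt3b fell by 1.85, the dioxygenase Tet2 by 1.08, the KRAB corepressor Trim28 by 1.12 and Uhrf1, which brings DNMT1 to newly replicated DNA, by 2.55, with 40.4% of Uhrf1 reads multi-mapped. Uhrf1 kept its call on T>C scaling. Dnmt3l had 5.29 and 5.26 and then 5.90 and 3.63 T>C CPM, with overlap, a change of −0.20 (0.52 on T>C scaling). Of 9 MYST acetyltransferase partners 4 fell, with a median of −1.19 (−0.45 on T>C scaling), namely Jade1 and 3 others. Kat6b had 19.1 and 21.8 and then 6.62 and 7.42 T>C CPM, a fall of 1.61, Jade3 fell by 1.57 and Kat6a, with 30.4% of reads multi-mapped, by 1.19, whereas Ing5 changed by −0.94. Of 20 polycomb subunits 4 fell, with a median of −0.77 (−0.04 on T>C scaling). Cbx6 had 36.3 and 53.1 and then 12.2 and 11.8 T>C CPM, a fall of 1.96 that stayed called on T>C scaling at −1.23, L3mbtl2 and Pcgf6 fell by 1.18 and 1.38, and the ubiquitin ligase Rnf2 changed by −0.98. Of 15 methionine cycle and methyl donor genes 5 fell, with a median of −0.91 (−0.21 on T>C scaling), including Mettl16 by 1.12, Mtap by 1.60 and Mthfd1l by 1.90. Mthfd2 changed by −0.58 (0.15 on T>C scaling).

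Growth and housekeeping lists lay near or above the median of all genes, while cholesterol and Myc network genes had lower medians. Of 14 tested cholesterol synthesis and uptake genes 11 fell, with a median of −1.39 (−0.66 on T>C scaling). Hmgcs1 and Sqle, enzymes of the pathway, fell by 1.11 and 1.09, and Sc5d changed by −0.52 (0.21 on T>C scaling). Of 7 genes of the Myc and Max network 3 fell, with a median of −1.31 (−0.57 on T>C scaling). Myc had 6.18 and 14.6 and then 4.17 and 4.69 T>C CPM, a fall of 1.31 (−0.57 on T>C scaling) with 0 h libraries that differ more than the lower of them differs from 24 h, Mlx fell by 1.47, and Mga changed by −0.95.

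Of 94 ribosome biogenesis factors 27 fell, with a median of −0.84 (−0.10 on T>C scaling). Nop10, a part of H/ACA ribonucleoproteins, fell by 1.58. Rrn3, which brings RNA polymerase I to rDNA, fell by 1.80, and Tcof1, another factor of rDNA transcription, by 2.07, and the last pair stayed called on T>C scaling at −1.07 and −1.34. Brix1 changed by −0.62 (0.11 on T>C scaling), and Nol11 and Ddx47 rose on T>C scaling, by 1.18 and 1.46. Of 73 cytosolic ribosomal protein genes 9 fell, with a median of −0.72 (0.01 on T>C scaling), but in 69 of them at least 10% of reads were multi-mapped. Rpl4, under that limit, had 178 and 202 and then 137 and 136 T>C CPM, a change of −0.54 (0.19 on T>C scaling). Of 61 mitochondrial ribosomal protein genes 15 fell, with a median of −0.76 (−0.03 on T>C scaling). Mrpl50 and Mrpl44 fell by 1.16 and 1.10, and Mrps16, with 7.65 and 7.96 and then 1.01 and 2.42 T>C CPM, fell by 2.25, whereas Mrps2 changed by −0.58 (0.15 on T>C scaling). Mrps16 and Mrpl36 (−2.87) were called on T>C scaling too.

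Of 36 translation initiation factors 6 fell, with a median of −0.72 (0.01 on T>C scaling). Eif1a, Eif2b1 and Eif2b3 fell by 1.03, 1.05 and 2.36, and Eif4h changed by −0.86. Of 17 aminoacyl-tRNA synthetases 1 fell, Kars by 1.41, with a median of −0.53 (0.20 on T>C scaling), and Tars changed by −0.33 (0.40 on T>C scaling). Of 32 proteasome subunits 7 fell, with a median of −0.81 (−0.08 on T>C scaling). The deubiquitinase subunit Psmd14 had 16.6 and 16.6 and then 6.47 and 4.69 T>C CPM, a fall of 1.63, Psmd7 and Psma1 fell by 1.09 and 1.13, and Psmd3 changed by −0.86. Of 66 respiratory chain genes 9 fell, with a median of −0.60 (0.14 on T>C scaling), including Ndufc2, Ndufb2 and Ndufa8 by 1.12, 1.19 and 1.36, whereas Cox6c changed by −0.99. Atp5j was the respiratory gene called on T>C scaling, and 99.8% of its reads were multi-mapped. Of 42 splicing factors of the SR, hnRNP and SF3 families 6 fell, with a median of −0.69 (0.05 on T>C scaling), including Sf3b6 by 1.23 and Srsf4 by 1.02, and Srsf7 changed by −0.88.

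Cell cycle genes fell about as often as all genes. Of 34 DNA replication and G1/S genes 10 fell, with a median of −0.81 (−0.08 on T>C scaling). Ccne1, the cyclin that drives entry into S phase (on the minus strand of chromosome 7), had 16.0 and 13.3 T>C CPM at 0 h and 3.31 and 2.73 at 24 h, a fall of 2.33 (standard error 0.28, adjusted p = 6.89e-11), or −1.61 on T>C scaling. Rrm2, a subunit of ribonucleotide reductase, had 31.3 and 34.3 and then 6.90 and 10.8, a fall of 1.96, or −1.23 on T>C scaling, and both were called on either scaling. The licensing factor Cdt1 changed by −0.88. Of 37 mitosis and G2/M genes 8 fell, with a median of −0.65 (0.07 on T>C scaling). Cdk1, Ccna2 and Kif2c fell by 1.03, 1.00 and 1.07, the centromeric histone gene Cenpa fell by 2.05 and stayed called on T>C scaling, and Aurka changed by −0.45 (0.29 on T>C scaling). Of 25 genes of the p53 list 5 fell, with a median of −0.48 (0.25 on T>C scaling). Gadd45a, Zmat3 and Pmaip1 fell by 1.08, 1.59 and 1.68, whereas Sesn2 had 62.1 and 69.8 and then 60.4 and 67.5 T>C CPM, with overlap, a change of −0.11 (0.63 on T>C scaling).

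Among the stress lists, hypoxia-responsive genes had the lowest median. Of 18 hypoxia-responsive genes 8 fell, with a median of −1.22 (−0.49 on T>C scaling). The glucose transporter gene Slc2a1 had 70.6 and 97.8 and then 26.8 and 28.6 T>C CPM, a fall of 1.67, Pdk1 fell by 1.97 and Vegfa by 1.05, and Slc2a3 changed by −0.41 (0.32 on T>C scaling). Pdk1 and the lactate dehydrogenase gene Ldha (−2.20, 53% multi-mapped) were called on T>C scaling as well. Of 29 heat shock proteins and chaperones 10 fell, with a median of −0.77 (−0.05 on T>C scaling). The endoplasmic reticulum chaperone gene Hspa5 had 56.6 and 62.1 and then 23.9 and 20.4 T>C CPM, a fall of 1.48 (−0.75 on T>C scaling), and Pdia6, Calr and Dnaja2 fell by 1.55, 1.74 and 1.04, of which Calr kept its call on T>C scaling, whereas Hspa4 changed by −0.75. Of 20 integrated stress response genes 4 fell, with a median of −0.67 (0.06 on T>C scaling), among them Hspa5, Xbp1 by 1.63 and Cebpb by 1.10. Atf4, the factor that drives this response, had 128 and 157 and then 86.3 and 87.3 T>C CPM, a change of −0.78. Of 23 actin, SRF and YAP target genes 7 fell and 1, Ccn2, rose, with a median of −0.88 (−0.15 on T>C scaling). Tpm3 and Myh9 fell by 1.23 and 1.24, and Tubb5 changed by −0.88.

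The immediate early genes, which cells induce within minutes of a stimulus, had the highest list median. Of 19 tested, 0 fell and 2 rose, Egr1 and Ccn2, and their median change was 0.01 (0.74 on T>C scaling). At any size of change, Ier2, Dusp1 and Mcl1 were lower (−0.91, −0.78 and −0.64, adjusted p below 0.01), and Klf6 was higher. Jun had 0.588 and 2.70 T>C CPM at 0 h and 2.16 and 3.33 at 24 h, with overlap. Fos had 1.47 and 1.16 and then 2.30 and 1.21. In all reads, 7 of 22 tested immediate early genes rose, Egr1 by 2.25, Ccn2 by 2.42, Fosl2 by 2.00, Fosl1 by 1.47, Jun by 1.40, Klf6 by 1.32 and Fos by 1.26, where 72 of 11394 genes (0.632%) fell and 99 (0.869%) rose. Those totals became 45 falls without 0 h replicate 2, 47 without 24 h replicate 1 and 41 without 24 h replicate 2, and 51 rises without 0 h replicate 1 and 38 without either 24 h replicate. Within the gene, T>C reads against other reads were called down in 7 of the 19, with a median of −1.02, where 30.5% of all tested genes were called down with a median of −0.86. Of 9 targets of the aryl hydrocarbon receptor in the files, Cyp1a1, Tiparp and Arnt were tested. Since Cyp1a1 was tested only through the time at which it is high, its rise is no count for the list. Tiparp changed by −0.46 (0.27 on T>C scaling). In all reads Cyp1a1, Cyp1b1 and Ahr rose, and Cyp1a1 had 0 and 0.128 CPM at 0 h and 13.8 and 19.7 CPM at 24 h. The 21 snoRNA and microRNA host genes of a further list are not among the genes of the files.

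**Figure D4:**
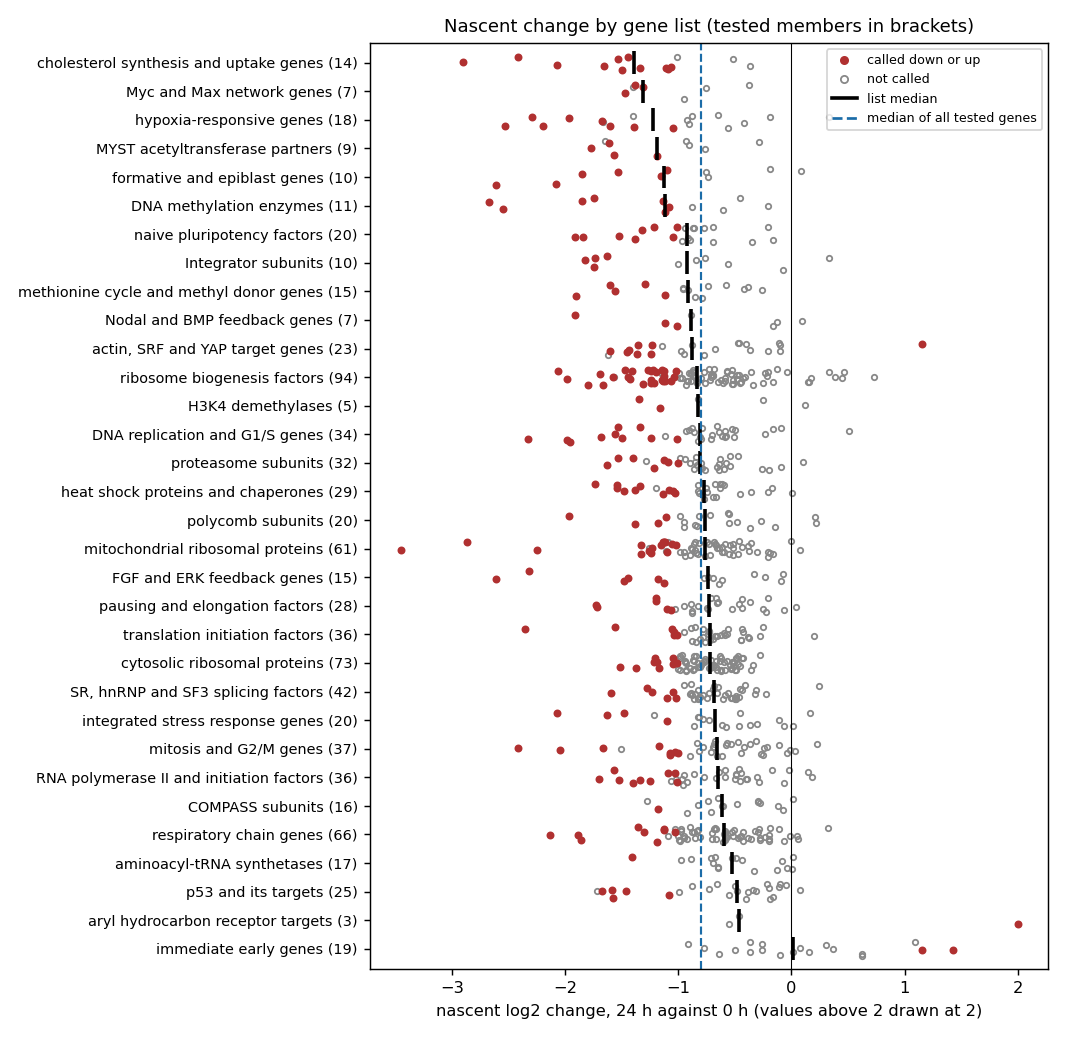
Log2 change of T>C reads from 0 h to 24 h (horizontal axis) for each tested member of each gene list (rows, tested members in brackets), filled where called and open where not. Black bars are list medians and the dashed line is the −0.80 of all tested genes. Among lists with more than 1 tested member, cholesterol genes lie farthest to the left with a median of −1.39, and immediate early genes farthest to the right with a median of 0.01. Values above 2 are drawn at 2.

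All reads of a gene, which at the 3′ end report mostly RNA made before the pulse, changed far less than its labelled reads. Over the same 5965 genes the median change of all reads was −0.01. Of the 1643 genes that fell in T>C reads, 30 also fell in all reads, 418 were lower there at an adjusted p below 0.05 at any size and 15 were higher, and 1440 lay between −0.5 and 0.5, with a median of −0.18. Within each gene, T>C reads were also compared with the reads of the same gene and library that lack a conversion. That contrast needs no scaling between libraries, but it keeps any change of the labelled share that all genes of a library have in common. There 1818 genes fell (30.5% of genes tested) and 3 rose (0.0503%), with a median of −0.86, and 1297 of the 1643 were among the falls. The falls within gene numbered 1003 without 0 h replicate 2 and 1128 without 24 h replicate 2. The 3 that rose are 4931414P19Rik, Dpy19l4 and Umad1, chosen with their values known. The labelled percent of the median gene went from 6.78% to 3.88%. The deepest falls within a gene, where T>C reads averaged 50 or more at 0 h, were in the RNA-binding factor Zfp36l2 (−2.94, 97.0% of reads multi-mapped), Mrps16 (−2.32), Gbx2 (−2.29) and Uhrf1 (−2.12).

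**Figure D5:**
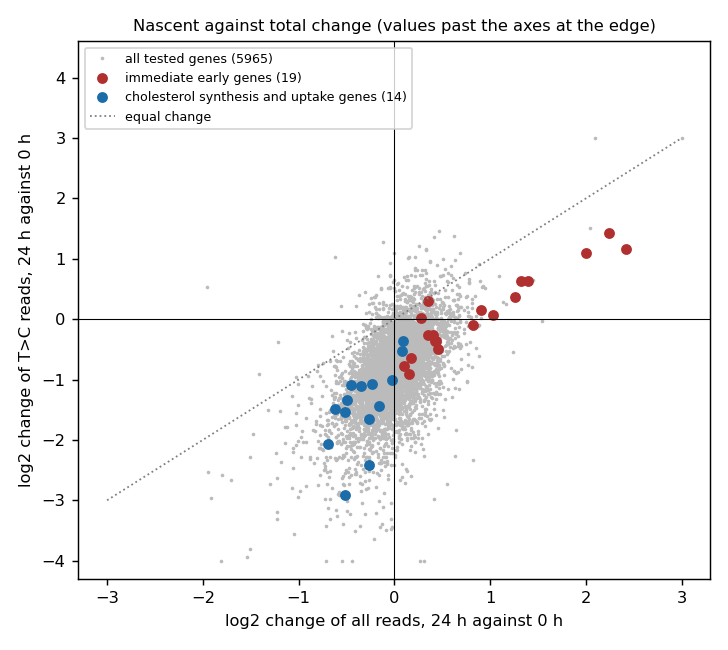
Log2 change of all reads (horizontal axis) against log2 change of T>C reads (vertical axis) from 0 h to 24 h for 5965 genes, with 19 immediate early genes and 14 cholesterol genes marked and a dotted line of equal change. All 14 cholesterol genes and all 19 immediate early genes lie under the line. The 22 immediate early genes tested in all reads, which include some not drawn, have a median of 0.44 there.

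The other times of the same line place the change mostly after 8 h. Against 0 h, 0 genes fell and 0 rose at 2 h, 12 fell and 0 rose at 4 h, 42 fell and 1 rose at 8 h, and 3840 fell and 7 rose at 48 h. At an unadjusted p below 0.05 in the same edgeR fit and the same size, 105 fell and 58 rose at 2 h, and 218 fell and 19 rose at 4 h. The medians were −0.12, −0.26, −0.19 and −1.29 in that order. Of the 1643 genes that fell at 24 h, 0, 10, 33 and 1485 had also fallen at 2 h, 4 h, 8 h and 48 h, in comparisons that share the 0 h libraries. Between 8 h and 24 h, which does not use the 0 h libraries, 709 genes fell (11.9% of genes tested) and 5 rose (0.0838%), which became 22 and 20 on T>C scaling. The 5 were Ccn2, Cyp1a1, Nab1, Ptgs2 and Rock2, of which Nab1, Ptgs2 and Rock2 were picked with their values known. The falls numbered 307 without 8 h replicate 2, 438 without 24 h replicate 1 and 267 without 24 h replicate 2. From 24 h to 48 h, 278 genes fell (4.66% of genes tested) and 1 rose (0.0168%), Tfap2c, which became 1 and 7 on T>C scaling. The falls numbered 7 without 48 h replicate 1, 95 without 24 h replicate 1, 146 without 24 h replicate 2 and 536 without 48 h replicate 2.

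Single genes followed different courses. Jade1 had 122 and 151 T>C CPM at 2 h, 102 and 94.1 at 4 h, 92.3 and 86.0 at 8 h and 32.3 and 48.0 at 48 h, so all its libraries from 2 h on lay under both 0 h libraries. Ccne1 had 16.2 and 16.5 T>C CPM at 2 h, 11.7 and 13.0 at 4 h, 10.5 and 15.7 at 8 h and 3.35 and 2.67 at 48 h, and its 8 h libraries overlapped 0 h. Sox2 had 113 and 133 at 2 h, 113 and 112 at 4 h, 127 and 119 at 8 h and 43.8 and 48.0 at 48 h. Egr1 had 1.75 and 1.65 at 2 h, 2.27 and 0.843 at 4 h, 2.85 and 3.65 at 8 h and 6.40 and 6.09 at 48 h, and both libraries of 24 h and 48 h lay above those of all earlier times. Myc had 11.2 and 16.1 at 2 h, 12.1 and 13.2 at 4 h, 10.4 and 12.6 at 8 h and 1.22 and 3.42 at 48 h, and its first 0 h library, at 6.18, lay under every library of 2 h, 4 h and 8 h.

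The 24 h change of the dKO was compared with that of DPY30–mAID cells by an interaction in 1 fit of both lines. Of 6901 genes tested, 164 had a lower change in the dKO (2.38%) and 2 a higher one (0.029%) on total-read scaling. On T>C scaling 54 were lower and 35 higher, and DESeq2 with size factors from all reads gave 459 lower and 2 higher. The largest differences among genes with at least 20 T>C reads at 0 h in both lines were in Xaf1, Calr and Ttc1. Calr, a calcium-binding chaperone, had 16.9 and 17.1 T>C CPM at 0 h and 5.61 and 5.00 at 24 h in the dKO, and 45.9, 52.0 and 51.8 at 0 h and 91.1, 116 and 117 at 24 h in DPY30–mAID cells. The difference was −2.82 on the log2 scale (standard error 0.45, adjusted p = 6.8e-05). Hspa5 had 139, 140 and 139 and then 297, 319 and 293 T>C CPM in DPY30–mAID cells, a difference of −2.57. Sox2 had 272, 271 and 307 and then 382, 440 and 356, a difference of −1.40 (adjusted p = 0.0183). Man2b1 and Furin, the 2 with a higher change in the dKO, were named after their values were seen. Both had 0 T>C reads in all 3 DPY30–mAID libraries at 24 h, so their fitted differences depend on the prior count. Among the groups compared, Man2b1 averaged 10 or more T>C reads only in DPY30–mAID cells at 0 h (17, 10 and 6), where it is high. Its place among the 2 rests on that group. The lines differ in T positions per read and have 2 and 3 libraries a time. Mean T>C shares were 4.98% and 3.06% in the dKO at 0 h and 24 h. In DPY30–mAID cells they were 15.8% and 15.3%. The median 24 h change was −0.80 in the dKO, and −0.10 in DPY30–mAID cells over 5381 of the same genes. The part of this offset in the 164 and 2 calls was not tested. The 164 became 103 without DPY30–mAID 24 h replicate 2, and far fewer without dKO 0 h replicate 2 or either dKO 24 h replicate.

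Promoter sequence was described next, since H3K4me3 sits at CpG-rich start sites. RefSeq promoters (GRCm38.p6, 250 bases before to 50 after a start) were matched by symbol to 80.6% of the tested genes. Falls made up 34.1% of the genes in the lowest of 5 equal bins of the ratio of observed to expected CpG and 23.8% in the highest bin, and the median change was −0.89 and −0.76, with −0.80, −0.77 and −0.79 in between. Over 5 bins of GC content the medians ran from −0.83 to −0.79 with no order. The median CpG ratio was 0.80 among genes that fell and 0.83 among those not called, and under 80% of the genes that rose or were called on T>C scaling had a promoter, so no value is given for them. The 250 bases before the start are shown for Ccne1, with a deep fall and a CpG-rich promoter, for Sox2, with a CpG-rich promoter and a smaller change, and for Cyp1a1, which rose from 0 T>C reads and has few CpGs. They are written 5′ to 3′ on the strand of the gene with each CpG in capitals.
Ccne1, chr7:38107491-38107740, minus strand, 34 CpGs: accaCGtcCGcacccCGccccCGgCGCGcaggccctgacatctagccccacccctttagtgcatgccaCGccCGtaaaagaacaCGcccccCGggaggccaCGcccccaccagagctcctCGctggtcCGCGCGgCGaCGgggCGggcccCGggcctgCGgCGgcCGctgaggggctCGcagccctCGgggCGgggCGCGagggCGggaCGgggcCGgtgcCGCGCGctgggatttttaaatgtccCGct
Sox2, chr3:34649745-34649994, plus strand, 27 CpGs: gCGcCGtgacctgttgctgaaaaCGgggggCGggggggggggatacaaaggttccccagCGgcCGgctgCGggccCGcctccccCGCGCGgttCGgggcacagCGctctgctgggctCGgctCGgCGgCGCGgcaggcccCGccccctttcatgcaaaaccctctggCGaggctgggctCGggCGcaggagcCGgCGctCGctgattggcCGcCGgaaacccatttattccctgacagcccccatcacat
Cyp1a1, chr9:57697363-57697612, plus strand, 3 CpGs: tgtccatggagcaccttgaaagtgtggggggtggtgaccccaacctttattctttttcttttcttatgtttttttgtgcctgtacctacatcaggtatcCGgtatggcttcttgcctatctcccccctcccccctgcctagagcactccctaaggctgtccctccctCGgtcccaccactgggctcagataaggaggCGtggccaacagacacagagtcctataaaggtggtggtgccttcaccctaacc

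Genes were also split by the share of labelled reads they had at 0 h in DPY30–mAID cells, libraries that the dKO comparison does not use. Among 5365 genes with at least 100 reads there, the dKO median change was −0.75, −0.79, −0.81, −0.83 and −0.80 from the lowest to the highest of 5 equal bins, and falls made up 23.9% of the lowest and 32.1% of the highest bin. Spearman's rho between the labelled share and the change was −0.03 across these genes, which share libraries and are not independent replicates. The gene median of labelled reads at 0 h went from 25.5 to 40 over these bins, so the depth behind a call moved with them.

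Markers of stem cells and of other cell types were summed in all reads, where members of a list can move in opposite directions. The 10 embryonic stem markers summed to 7367 and 7648 CPM at 0 h and 6170 and 6233 CPM at 24 h. Dppa5a (2557 and 2711 to 1767 and 1780 CPM) and Tdgf1 (796 and 772 to 462 and 494 CPM) made up most of that difference. Utf1, Lin28a, Pou5f1 and Esrrb were also lower in all reads (−0.72, −0.43, −0.33 and −0.24, adjusted p from 0.000283 to 0.0446), so that 6 of the 10 were lower at an adjusted p below 0.05, none of them past the size threshold. Nanog, Klf4, Zfp42 and Sox2 changed by 0.18, 0.12, −0.0022 and −0.04, with adjusted p from 0.151 to 0.993. Of the 10, 6 fell in T>C reads with a median of −1.12 (−0.38 on T>C scaling), among them Lin28a by 1.38. The 10 primitive endoderm markers summed to 146 and 143 CPM and then 160 and 144 CPM. Gata6 fell in T>C reads, from 15 and 9 reads to 3 and 3, and Lama1 changed by −0.32 (0.41 on T>C scaling). The 10 trophoblast markers summed to 72.1 and 70.2 CPM and then 75.1 and 71.8 CPM. Of those, Tfap2c fell in T>C reads by 1.17 and Eomes changed by −0.94, while in all reads Cdx2 fell by 1.42, Gata3 rose by 1.54 and Eomes was lower (−0.90, adjusted p = 0.0035). The 10 fibroblast markers summed to 834 and 848 CPM and then 863 and 846 CPM, nearly all from Fn1 and Vim. Under that sum Fn1 was higher at 24 h in all reads (373 and 336 to 523 and 506 CPM, log2 change 0.47, adjusted p = 0.000248), Vim was lower (441 and 487 to 324 and 328 CPM, −0.57, adjusted p = 0.000353) and Thy1 was lower (−0.84, adjusted p = 0.0105), with none past the size threshold. Col3a1, Lum, Dcn and Postn were at 0 in all 4 libraries. Vim changed by −0.69 in T>C reads (0.05 on T>C scaling). The 10 neural markers summed to 48.0 and 42.0 CPM and then 41.6 and 36.0 CPM, and of these Sox1 was tested and fell in T>C reads by 2.14, from 1.18 and 1.41 to 0.575 and 0 T>C CPM. The part of these cell types in the changes above was not tested.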

How the data were processed

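SLAM-seq labels RNA with 4SU, and QuantSeq 3′ libraries were sequenced from it. Per the file headers, the deposited counts were made with SlamDunk 0.3.4 for 46420 3′ UTR intervals of GENCODE release 14 on GRCm38, and hold all reads, T>C reads, T coverage and conversions. No molecular identifiers were used, so intervals and floors cover counting error only. The methods name a filter of more than 1 conversion a read, which the deposited T>C counts do not carry, since they average under 2 conversions a read. Spike-in reads were not used here. The authors deposited these counts without normalization. The columns with rates derived by the authors were not used.

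From the files, intervals were summed by gene (20177 genes, named from GENCODE release 21). Groups came from the labels. T>C counts were tested with edgeR 4.0.16 (R 4.3.3, quasi-likelihood, default prior count) in 1 fit of the 12 dKO libraries. Library sizes were all reads times TMM factors from all reads. Genes were tested where T>C reads averaged 10 or more at 1 or more times. The medians of single libraries used a prior count of 0.5. Calls required p adjusted by Benjamini-Hochberg to be below 0.05 and a log2 change beyond 1. T>C scaling took library sizes and TMM factors from T>C reads. The fit within gene set T>C reads against other reads of the gene, and the fit between lines added 12 DPY30–mAID libraries of all times. Library totals, 5931269 to 7792404 reads, set the counting precision. On simulated data, 82% of 200 genes with a simulated log2 change of 2 were recovered among 5965 genes in the main comparison, 92% of 200 in all reads among 11394 genes, 31% within gene among 5965 and 28.5% between lines among 6901.

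The named genes are the targeted and stem cell genes, the 6 called down with the most 0 h T>C reads, the 6 deepest falls at a 0 h mean of at least 50 reads, all genes called up, the 6 highest changes not called up at a 0 h mean of at least 100 reads, 3 called members and 1 not called of each list, the 3 largest differences between lines in each direction at a mean of at least 20 reads, and the 4 deepest falls within gene, mostly at under 10% multi-mapped reads. Of these, 4 genes are not reported here. Genes called on T>C scaling were picked with their values known. The members, lists and tests were chosen with earlier results of these data known. Same-numbered replicates did not deviate together (mean correlation of 0.0173 over 15 pairs of times, from −0.0156 to 0.0508), so no pairing was assumed. Alternatives were DESeq2 1.42.0, other scalings, filters and prior counts, a replicate block, and each library left out. Tables were handled with Python 3.11.15, numpy 2.4.6, pandas 2.3.3, scipy 1.17.1 and matplotlib 3.10.9.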

Additional observations from a re-analysis of the deposited data

Results flagged for a closer look

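The 24 h change differed between the dKO and DPY30–mAID cells in 164 genes that were lower and 2 that were higher in the dKO, by an interaction term in edgeR on total-read scaling. On T>C scaling 54 were lower and 35 higher, and the 164 became 7, 7 and 9 without dKO 0 h replicate 2, 24 h replicate 1 and 24 h replicate 2. Among the genes named above, the difference (dKO minus DPY30–mAID, log2, total-read scaling) was −3.86 for Xaf1 (68.6% of reads multi-mapped), −2.82 for Calr, −2.77 for Ttc1, −2.57 for Hspa5, −2.41 for Rrm2, −2.36 for Srsf7, −1.97 for Pdk1, −1.89 for Pdia6 and −1.81 for Nop10. It was −1.78 for Id1, −1.77 for Pim3, −1.71 for Tiparp, −1.62 for Zfp979, −1.60 for Smad7, −1.40 for Sox2, −1.40 for Cdk1, −1.36 for Eif1a, −1.31 for Ccnt1 and −1.29 for Slc2a1. On T>C scaling all 19 of these differences were below 0 and 9 were still called, those of Xaf1, Calr, Ttc1, Hspa5, Rrm2, Srsf7, Pdia6, Id1 and Pim3. The lines also differ in T positions per read, in the labelled share of reads and in the number of libraries. The part of these in the differences was not tested.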

How the results depend on the processing

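The counts of falls and rises at 24 h were 1643 and 7 and became 131 and 44 on T>C scaling, 1034 and 4 with DESeq2, 1491 and 12 with no filter and 550 and 1 at a mean of at least 50 reads, where fewer genes are tested. They ran from 927 to 1789 and from 4 to 12 with 1 library left out. From 8 h to 24 h (709 and 5) they became 22 and 20 on T>C scaling, 298 and 0 with DESeq2 and 1098 and 16 at an unadjusted p below 0.05, and ran from 267 to 521 and from 3 to 5 with 1 library left out. From 24 h to 48 h (278 and 1) they became 1 and 7 on T>C scaling, 140 and 0 with DESeq2 and 689 and 21 unadjusted, and ran from 7 to 536 and from 0 to 2. Between lines (164 and 2) they became 54 and 35 on T>C scaling, 459 and 2 with DESeq2, 361 and 2 at a mean of at least 50 reads and 1124 and 70 unadjusted, and ran from 7 to 160 and from 0 to 2. Within gene (1818 and 3) they became 581 and 0 at a mean of at least 50 reads, and ran from 1003 to 1835 and from 2 to 7. In all reads (72 and 99) they became 50 and 47 with DESeq2, 51 and 46 at a mean of at least 50 reads and 133 and 197 unadjusted, and ran from 41 to 76 and from 38 to 89. The mean of the library medians, −0.77, became −0.0433 with library sizes from T>C reads and ran from −0.869 to −0.687 with 1 library left out. The T>C share ratio of 0.614 ran from 0.581 to 0.652. The cause of these changes was not tested beyond the number of genes or libraries.

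A replicate block, although the numbers do not pair the libraries, gave 1642 and 7 calls at 24 h, 731 and 5 from 8 h, 318 and 2 to 48 h, 175 and 1 between lines, 1821 and 3 within gene and 78 and 113 in all reads, and changed no call among 152 named genes.

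Named genes turned direction on T>C scaling in 17 of 152 cases, to 0.57 in Nanog, 0.20 in Ccnt1, 0.11 in Brix1, 0.19 in Rpl4, 0.15 in Mrps2, 0.40 in Tars, 0.29 in Aurka, 0.21 in Sc5d, 0.63 in Sesn2, 0.50 in Dusp6, 0.56 in Id3, 0.32 in Slc2a3, 0.52 in Dnmt3l, 0.15 in Mthfd2, 0.27 in Tiparp, 0.41 in Lama1 and 0.049 in Vim. With 1 library left out, the change ran from −0.094 to 0.39 in Kdm5a, −0.047 to 0.34 in Brd2, −0.0070 to 0.25 in Hic2 and −0.28 to 0.53 in Nr4a1, each lowest and below 0 without 0 h replicate 1. It ran from −0.44 to 0.18 in Nanog, above 0 without 0 h replicate 2, from −0.032 to 0.13 in Rell1, below 0 without 0 h replicate 2 or 24 h replicate 1, from −1.09 to 0.19 in Lama1, above 0 without 24 h replicate 1, and from −0.60 to 0.096 in Dnmt3l, above 0 without 24 h replicate 2. None of these genes passed both thresholds with all libraries on total-read scaling.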
